A study of Homo sapiens with 6 samples.

Results

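Genes of the unfolded protein response and of the amino acid stress response were examined in PC3 cells carrying the G protein-coupled receptor kinase GRK3 or green fluorescent protein (GFP). The members are 36 genes, out of 16922 named genes with a probe on the array. They form a list of pathway genes by symbol, drawn up with earlier results of these data known, and 35 of the 36 were matched to a probe through the platform's probe annotation. For HERPUD1, an ER stress gene of protein degradation, no probe was matched, so its level was not analysed here. Of the 35, 32 were detected on all 6 arrays and entered the test, and for 3 (PDIA3, SESN2 and VLDLR) no probe was above background on any array. PC3 is an established human prostate cancer line that grows without androgen. The control group held 3 arrays of PC3 cells with the GFP transgene and the other group 3 arrays of PC3 cells with the GRK3 transgene, all grown in RPMI medium with fetal bovine serum and antibiotics. No stress agent is named in the labels for either group. The sources used here do not give whether the transgenic cells were 1 clone or a pool, so clone and transgene cannot be told apart. The RNA is of bulk cells, in which fewer cells of a type and less RNA per cell cannot be told apart.

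When unfolded protein builds up in the endoplasmic reticulum (ER), the sensors ATF6, IRE1 and PERK are activated. ATF6 and the XBP1 protein that IRE1 activity yields switch on genes for chaperones and folding enzymes, here called the ER arm. PERK, and the kinase GCN2 when amino acids run short, phosphorylate the initiation factor eIF2, which slows protein synthesis while the transcription factor ATF4 is translated more. ATF4 then switches on genes for amino acid synthesis, amino acid transport, tRNA charging and stress feedback, here called the ATF4 arm. Secretory and fast-growing cancer cells often run both arms at a basal level.

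Motifs that these factors are known to read were looked for in the members' promoters, a search that does not use the array values. Most ATF4 arm genes and some ER arm genes held none of them. Promoters came from RefSeq (GRCh38.p14) and span 250 bases before to 50 bases after each annotated start, and 33 of the 36 members were matched, with PDIA3, PSPH and SHMT2 unmatched. Both strands were searched for the ER stress element ERSE (CCAAT and CCACG with 9 bases of any kind between them), for ERSE-II (ATTGG and CCACG with 1 base of any kind between them), for the unfolded protein response element UPRE (TGACGTGG) and for the C/EBP-ATF response element CARE (TGATGNAA). ERSE was found in 5 of the 12 matched ER arm genes, in 0 of the 17 matched ATF4 arm genes and in XBP1, against 0.0769% of all 35116 promoters. The ERSE matches are printed below to show where the letters lie and how the free spacers differ, while the fixed letters are the same because they were searched for. They are written 5′ to 3′ on the gene's strand, with fixed letters in capitals and the free spacer in lower case, and those starting with CGTGG match on the opposite strand.
HSPA5: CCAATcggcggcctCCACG
HSP90B1, farther from the start: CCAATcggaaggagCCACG
HSP90B1, nearer to the start: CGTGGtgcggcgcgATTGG
CALR: CGTGGtcgaccatcATTGG
CANX: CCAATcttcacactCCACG
PDIA6: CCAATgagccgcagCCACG
XBP1: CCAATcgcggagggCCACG

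The sites lie at chr9:125241391-125241409 (minus strand) for HSPA5, chr12:103930216-103930234 and chr12:103930321-103930339 (plus strand) for HSP90B1, and chr19:12938384-12938402 (plus strand) for CALR. The CANX site is at chr5:179698778-179698796 (plus strand), the PDIA6 site at chr2:10812853-10812871 (minus strand) and the XBP1 site at chr22:28800603-28800621 (minus strand). ERSE-II was found in HYOU1, SDF2L1 and HERPUD1, against 0.0541% of all promoters. UPRE was found in HYOU1, where it overlaps an ERSE-II site, against 0.729% of promoters. CARE was found in 5 of the 17 matched ATF4 arm genes (CHAC1, ASNS, SLC3A2, AARS1 and GARS1) and in HERPUD1 of the ER arm, against 3.62% of promoters. In SLC3A2 the match lies after the start. Members with several annotated starts had several windows, 49 windows for 33 genes. A gene was counted if any of its windows held the motif, while the share of all promoters counts each window. Whether promoters of these members were used to define the motifs was not analysed here, so the counts are no independent support for the arms. A match describes the letters only and does not show that a factor binds there.

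The 250 bases before the start are shown for 5 genes whose values are described below: HSPA5 and HSP90B1 for the ER arm, ASNS and AARS1 for the ATF4 arm, and PPP1R15A, which held none of the 4 motifs in its window. Capitals mark ERSE in the first 2 and CARE in the next 2. The stretches are chr9:125241344-125241593 (minus strand), chr12:103930160-103930409 (plus strand), chr7:97872409-97872658 (minus strand), chr16:70289507-70289756 (minus strand) and chr19:48872171-48872420 (plus strand), in GRCh38.p14.
HSPA5: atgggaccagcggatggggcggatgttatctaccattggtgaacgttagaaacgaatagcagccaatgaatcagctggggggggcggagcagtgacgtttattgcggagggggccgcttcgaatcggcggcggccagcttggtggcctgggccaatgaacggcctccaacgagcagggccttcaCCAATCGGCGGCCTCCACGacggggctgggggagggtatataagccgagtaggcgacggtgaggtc
HSP90B1: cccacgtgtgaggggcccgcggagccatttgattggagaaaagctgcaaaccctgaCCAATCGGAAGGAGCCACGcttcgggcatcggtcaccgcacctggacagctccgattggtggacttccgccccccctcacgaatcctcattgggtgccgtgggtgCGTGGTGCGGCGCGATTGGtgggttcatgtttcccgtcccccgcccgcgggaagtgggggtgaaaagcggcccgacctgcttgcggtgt
ASNS: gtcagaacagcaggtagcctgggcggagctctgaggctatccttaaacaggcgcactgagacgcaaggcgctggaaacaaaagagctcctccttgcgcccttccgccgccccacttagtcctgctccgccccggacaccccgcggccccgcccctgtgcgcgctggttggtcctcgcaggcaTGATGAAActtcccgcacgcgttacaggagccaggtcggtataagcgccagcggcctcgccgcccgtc
AARS1: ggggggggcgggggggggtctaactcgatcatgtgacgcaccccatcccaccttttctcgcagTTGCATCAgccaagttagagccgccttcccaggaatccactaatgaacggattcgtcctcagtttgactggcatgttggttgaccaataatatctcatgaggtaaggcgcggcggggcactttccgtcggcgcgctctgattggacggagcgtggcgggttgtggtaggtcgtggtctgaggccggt
PPP1R15A: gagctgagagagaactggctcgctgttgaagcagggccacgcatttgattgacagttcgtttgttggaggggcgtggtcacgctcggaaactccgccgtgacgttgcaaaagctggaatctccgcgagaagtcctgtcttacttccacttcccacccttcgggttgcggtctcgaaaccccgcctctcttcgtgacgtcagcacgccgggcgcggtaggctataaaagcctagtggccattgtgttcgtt

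Mean signal lay between 1171 and 1387 per array, and 56.2% to 58.6% of the 24526 probes were detected on each array, that is, had a detection p-value under 0.05. The GRK3 probe was detected on 0 of 6 arrays, so it gives no check of the labels, and where it lies in the transcript was not analysed here. The epithelial and PC3 markers KRT8, KRT18, KRT19, VIM, CAV1 and CD44 were detected on all 6 arrays, and the luminal prostate genes KLK3 and TMPRSS2 on 0 arrays and KLK2 on 1. Of 6 stroma and leukocyte markers, COL1A1 and CD68 were detected on all 6 arrays and COL1A2, DCN, PTPRC and CD3E on none. Nothing in the labels ties the 3 arrays of a group to separate cultures, and the p-values therefore reflect sample-to-sample spread that may be technical.

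No member passed the test between GRK3 and GFP cells. Of the 32 members tested, 0 were higher and 0 lower at a limma adjusted p under 0.05, while 81 of all 14130 tested probes passed, which is 0.573%. At an unadjusted limma p under 0.05 there were 2 members, HSPA5 (higher) and PPP1R15A (lower), against 11.6% of all tested probes. The groups of 3 arrays did not overlap for 4 members (HSPA5 and DNAJB11 higher, DNAJC3 and PPP1R15A lower in GRK3 cells), against 16.4% of all tested probes. Of the 32 differences, 16 were above 0 and 16 below. Differences are GRK3 minus GFP on the normalized log2 scale throughout, and they ran from -0.49 to 0.29, with 95% intervals that together reach from -0.71 to 0.57.

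**Figure D1:**
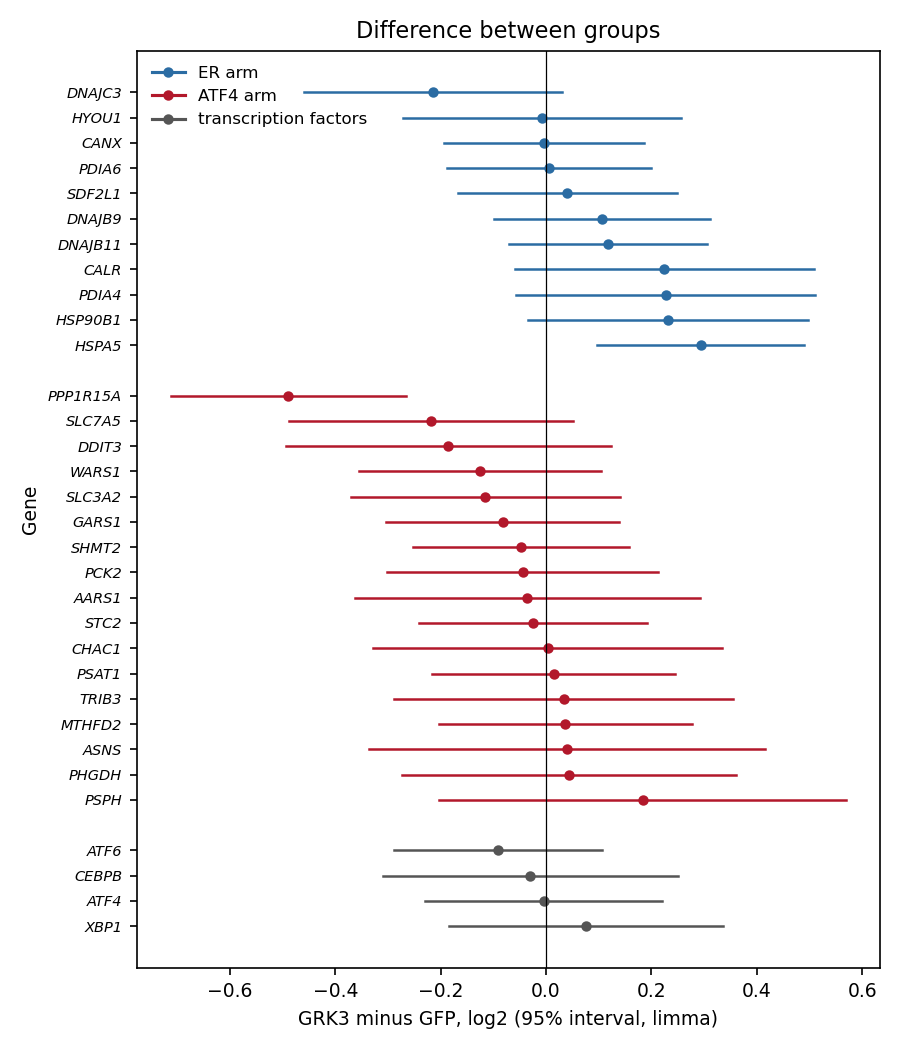
The x axis gives the GRK3 minus GFP difference on the log2 scale for each of the 32 tested members, with points for the limma estimate and lines for its 95% interval, 3 arrays per group. HSPA5 at 0.29 and PPP1R15A at -0.49 lie at the ends, and theirs are the 2 intervals that leave out 0.

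In the ER arm, 8 of the 11 tested genes had a difference above 0 and 3 below, with a median of 0.11 against -0.01 over all tested probes, and 0 of 11 passed. HSPA5 encodes BiP, the abundant ER chaperone that also holds the stress sensors inactive. Its normalized log2 levels were 10.47, 10.33 and 10.50 on GFP replicates 1, 2 and 3, and 10.73, 10.72 and 10.72 on the GRK3 arrays in the same order. All GRK3 arrays were above all GFP arrays, and the GRK3 arrays differed among themselves by far less than the GFP arrays did. The difference was 0.29 ± 0.09 (SE), or 1.23-fold, with a 95% interval from 0.10 to 0.49 and a limma adjusted p of 0.22.

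The chaperone genes HSP90B1 and CALR and the disulfide isomerase gene PDIA4 had similar differences with wider spread. HSP90B1 encodes GRP94, the ER member of the HSP90 family, and read 14.95, 14.81 and 14.67 in GFP cells and 14.89, 14.98 and 15.25 in GRK3 cells. CALR encodes calreticulin, a lectin chaperone for glycoproteins, and read 11.74, 11.57 and 11.39 against 11.63, 11.74 and 12.00. PDIA4, whose product forms and reshuffles disulfide bonds, read 10.43, 10.45 and 10.17 against 10.33, 10.67 and 10.72. For these 3 genes GFP replicate 3 was the lowest array and GRK3 replicate 3 the highest, and the groups overlapped. Their differences were 0.23, 0.22 and 0.23, each with a SE of 0.12 or 0.13, and their limma adjusted p-values were 0.512, 0.554 and 0.551. Without GRK3 replicate 3 the difference was 0.13 for HSP90B1 and 0.12 for CALR, and without GFP replicate 3 it was 0.14 for CALR and 0.14 for PDIA4. Without GRK3 replicate 1 the PDIA4 difference was 0.35, and with median scaling the HSP90B1 difference was 0.35.

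The remaining ER arm genes differed less or the other way. DNAJC3, which encodes the co-chaperone p58IPK, an inhibitor of PERK, read 7.04, 7.18 and 7.41 on GFP arrays and 7.03, 7.02 and 6.93 on GRK3 arrays. Every GRK3 array was below every GFP array, by only 0.01 between the nearest pair, and the difference was -0.21 ± 0.11 (SE) with a limma adjusted p of 0.506. DNAJB11, an HSP40 co-chaperone of BiP, differed by 0.12 without overlap of the groups (limma adjusted p = 0.673), and DNAJB9 (ERdj4), another such co-chaperone, by 0.11 (0.735). Calnexin (CANX), the membrane-bound partner of calreticulin in glycoprotein folding, and the isomerase gene PDIA6 varied least of all members, with ranges over the 6 arrays of 0.11 and 0.13, against a median range of 0.36 over all tested probes. Their 95% intervals for the difference ran from -0.19 to 0.19 and from -0.19 to 0.20. HYOU1, an ER chaperone of the HSP110 family, had an interval from -0.27 to 0.26, and SDF2L1, a co-chaperone of BiP complexes, one from -0.17 to 0.25. The 5 ERSE genes of this arm held both the larger differences (HSPA5, HSP90B1 and CALR) and the smallest ranges (CANX and PDIA6), and PDIA4 differed by 0.23 with none of the 4 motifs in its windows.

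**Figure D2:**
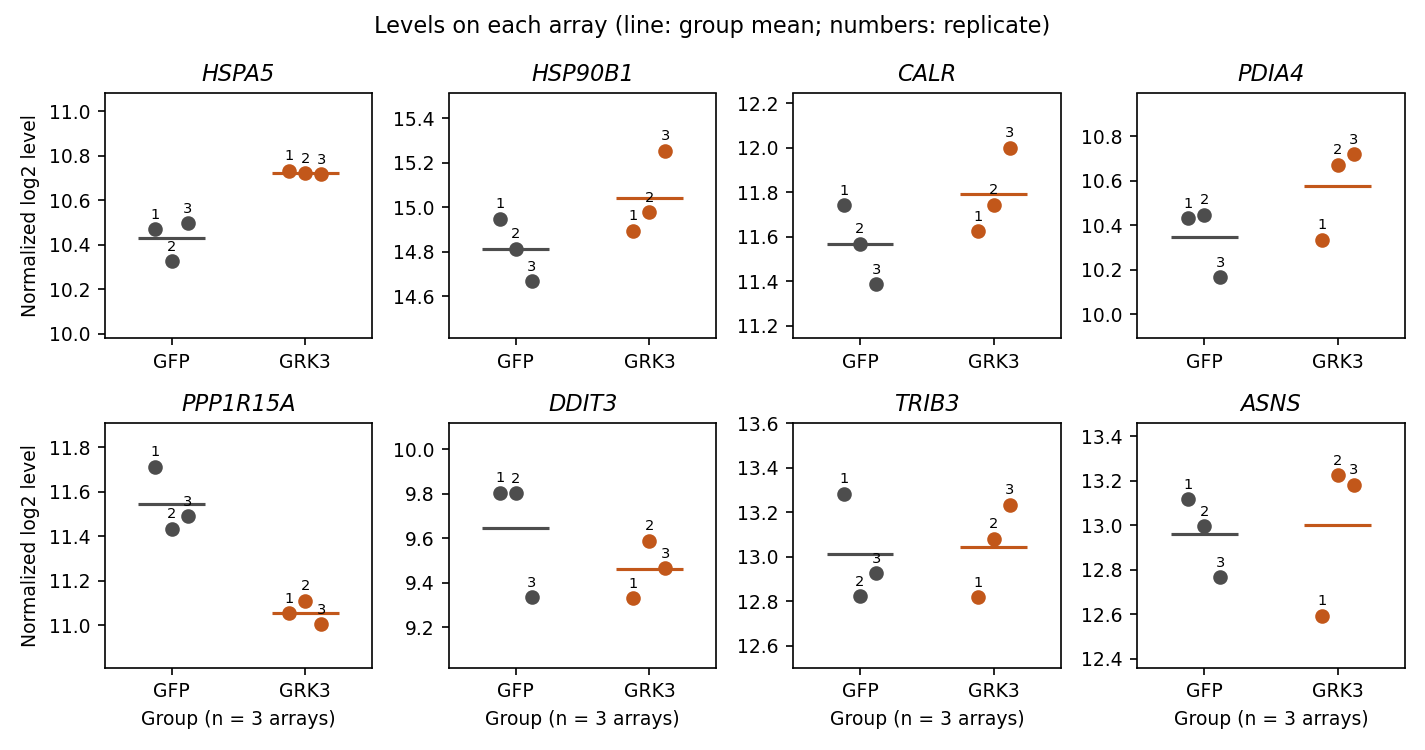
Each panel gives the normalized log2 level (y axis, 1.1 units high in every panel) of a gene on each array, with the replicate number beside the point and a line at the mean of the 3 arrays of a group. HSPA5 and PPP1R15A separate the groups, while ASNS is lowest on GRK3 replicate 1 at 12.59 and highest on GRK3 replicate 2 at 13.22.

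In the ATF4 arm, 7 of the 17 tested genes had a difference above 0 and 10 below, with a median of -0.04 against -0.01 over all tested probes, and 0 of 17 passed. The sign of that median was not stable, as it was 0.07 with median scaling in place of quantile normalization and 0.06 without GRK3 replicate 1. PPP1R15A had the largest difference among the members. It encodes GADD34, which brings protein phosphatase 1 to eIF2 and so ends the block of translation. PPP1R15A read 11.71, 11.43 and 11.49 in GFP cells, against 11.06, 11.11 and 11.01 in GRK3 cells. The groups were far apart relative to the spread within them. The difference was -0.49 ± 0.10 (SE), or 1.40-fold, with a 95% interval from -0.71 to -0.27 and a limma adjusted p of 0.0778. Under 5 of 16 alternative settings it passed, with a limma adjusted p that ran from 0.0217 to 0.272 over all 16.

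The other stress targets did not separate the groups. DDIT3, which encodes the pro-apoptotic factor CHOP, read 9.80, 9.80 and 9.33 on GFP arrays and 9.33, 9.59 and 9.46 on GRK3 arrays. GFP replicate 3 and GRK3 replicate 1 were both at the lower end, and the difference was -0.19 ± 0.14 (SE) with a limma adjusted p of 0.688. TRIB3, a pseudokinase that feeds back on ATF4 and CHOP, read 13.28, 12.82 and 12.93 against 12.82, 13.08 and 13.24. CHAC1, a glutathione-degrading enzyme and a sensitive ATF4 target, read 6.66, 6.85 and 6.46 against 6.35, 6.77 and 6.86. In both genes the groups overlapped widely, and the 95% intervals of the difference ran from -0.29 to 0.36 for TRIB3 and from -0.33 to 0.33 for CHAC1. STC2, which encodes the secreted glycoprotein stanniocalcin-2, had a range of 0.22 over the 6 arrays and an interval from -0.24 to 0.19. The probes of SESN2, a stress-induced regulator of mTORC1, and of VLDLR, a lipoprotein receptor, were not above background, with detection p-values from 0.0874 to 0.139 for SESN2 and of at least 0.366 for both VLDLR probes. The same held for the probe of PDIA3 of the ER arm, a disulfide isomerase that works with calnexin and calreticulin (0.0712 to 0.0906). Where these probes lie in their transcripts was not analysed here, so the values do not show that the genes are not expressed.

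The 7 genes for amino acid and one-carbon enzymes had a median difference of 0.04, and 5 of them were above 0. ASNS, asparagine synthetase, read 13.12, 13.00 and 12.77 on GFP arrays and 12.59, 13.22 and 13.18 on GRK3 arrays. GRK3 replicate 1 was the lowest array and the other GRK3 arrays the highest, so the group mean differed by 0.04 with a 95% interval from -0.34 to 0.41. A second, dimmer ASNS probe also had its lowest value on GRK3 replicate 1, at 9.41 against 10.16 and 10.07 on the other GRK3 arrays. PSPH, the last enzyme of serine synthesis, read 9.34, 8.84 and 8.65 against 8.91, 9.14 and 9.32 (difference 0.18 ± 0.17, SE, with a limma adjusted p of 0.766). The earlier serine pathway genes PHGDH and PSAT1 had intervals from -0.27 to 0.36 and from -0.22 to 0.24. The mitochondrial folate genes SHMT2 and MTHFD2 had intervals from -0.25 to 0.16 and from -0.20 to 0.28, and PCK2, mitochondrial phosphoenolpyruvate carboxykinase, one from -0.30 to 0.21. A second PCK2 probe, near background, had a difference of -0.13 (limma adjusted p = 0.719).

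Amino acid transport and tRNA charging genes had differences below 0 in 5 of 5 cases, where 7386 of all 14130 tested probes were below 0, and none passed. With quantile normalization, 2 of 2 of these transport genes and 3 of 3 of these tRNA charging genes were lowest on GRK3 replicate 1. Of all tested probes, 19.6% were lowest there. The sign turned for AARS1 in 4 of 16 alternatives, up to 0.14, and for GARS1 in 2 of 16, up to 0.04. SLC7A5, the light chain LAT1 of a large neutral amino acid transporter, read 14.05, 13.88 and 13.88 on GFP arrays and 13.47, 13.88 and 13.80 on GRK3 arrays. GRK3 replicate 1 stood below all others, and the difference was -0.22 ± 0.12 (SE) with a limma adjusted p of 0.544. Over the 16 alternatives the SLC7A5 difference ran from -0.30 to -0.07. SLC3A2, the heavy chain of that transporter, had a difference of -0.11 (limma adjusted p = 0.784). The synthetase genes AARS1, GARS1 and WARS1, which charge tRNAs with alanine, glycine and tryptophan, differed by -0.04, -0.08 and -0.13, with limma adjusted p-values of 0.963, 0.827 and 0.719. A second WARS1 probe differed by -0.12 (limma adjusted p = 0.776).

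Transcripts of the regulators differed little between the groups. ATF4 at its brightest probe read 15.04, 14.95 and 14.85 on GFP arrays and 14.81, 15.07 and 14.95 on GRK3 arrays, with a 95% interval for the difference from -0.23 to 0.22. A second ATF4 probe had a difference of 0.07 and another, near background, one of -0.18 (limma adjusted p = 0.873 and 0.827). ATF6 read 11.90, 11.89 and 11.77 against 11.78, 11.82 and 11.70 (95% interval from -0.29 to 0.11). XBP1 read 12.08, 11.93 and 11.84 against 11.81, 12.14 and 12.13 (interval from -0.18 to 0.34) at the brighter of its probes. CEBPB, which encodes a C/EBP partner of ATF4 and CHOP, had an interval from -0.31 to 0.25. ATF4 is controlled mainly at translation, ATF6 by cleavage and XBP1 by splicing, and these arrays read transcript level only.

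**Figure D3:**
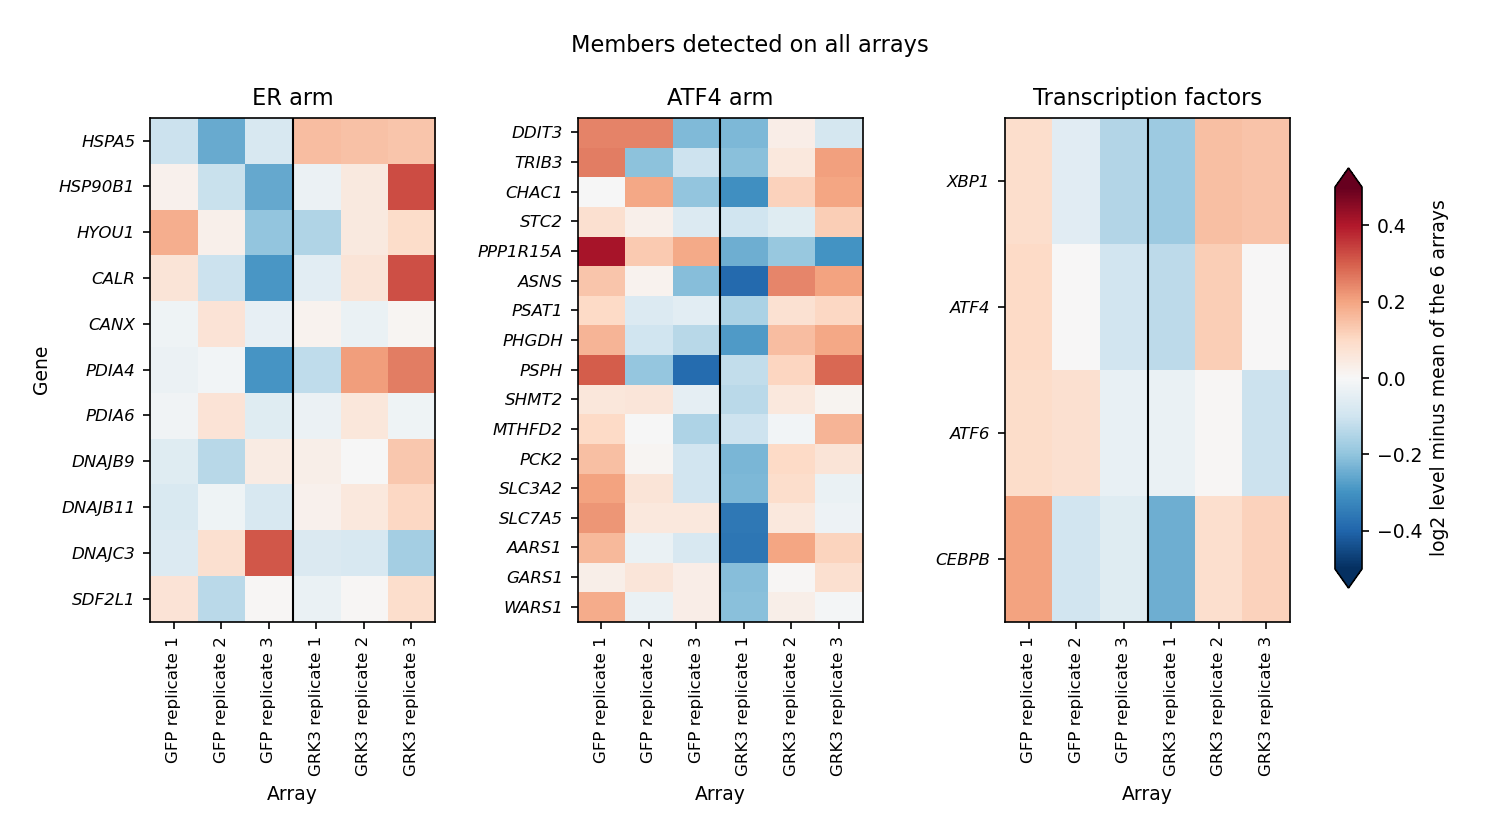
Colours give the log2 level of each tested member (rows) on each array (columns) minus its mean over the 6 arrays, with a black line between the 3 GFP and the 3 GRK3 arrays. The ATF4 arm column for GRK3 replicate 1 is blue, that is, below the mean of the 6 arrays, in every row. There 14 of 17 genes had their lowest value. With median scaling 6 of 17 did, against 12.7% of all tested probes.

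The ATF4 arm varied more between arrays of the same group than between the groups. The median within-group SD was 0.16 for its 17 genes, 0.09 for the 11 ER arm genes and 0.13 over all tested probes. On GRK3 replicate 1, 14 of the 17 ATF4 arm genes had their lowest value of the 6 arrays, against 19.6% of all tested probes. The exceptions were PPP1R15A, PSPH and MTHFD2. Relative to the mean of the other arrays of its group, GRK3 replicate 1 was lower in 17 of 17 ATF4 arm genes, with a median of -0.25, where 50.1% of all tested probes were lower. GFP replicate 3 was likewise lower than the other GFP arrays in 17 of 17 genes, with a median of -0.14, and GFP replicate 1 was higher in 15 of 17. These counts use 1 probe per gene. Second probes of ASNS and WARS1 also had their lowest value on GRK3 replicate 1. A second PCK2 probe, near background, did not, and read 6.41 there against 6.39 and 6.40 on the other GRK3 arrays. In the ER arm, 8 of 11 genes were lower on GRK3 replicate 1 than on the other GRK3 arrays, with a median of -0.06, and 11 of 11 were with the authors' value table, where 8968 of all 14130 tested probes were. This choice of array was made after its values were seen, and the members of an arm are not replicates.

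Which array was lowest depended on the scaling. With median scaling, GFP replicate 3 was the lowest array for 9 of the 17 ATF4 arm genes and GRK3 replicate 1 for 6. Under that scaling they were the lowest array for 28.0% and 12.7% of all tested probes. GRK3 replicate 1 was then below the mean of the other GRK3 arrays in 16 of 17, where 6419 of all 14130 tested probes were. With the authors' value table, GRK3 replicate 1 was the lowest for 13 of 17, where it was also the lowest for 31.8% of all tested probes. GRK3 replicate 1 had the most detected probes of the 6 arrays, 14363, and a mean signal of 1339, inside the range of the others. The part of array quality or culture state in the pattern was not tested.

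Averaged over its genes after subtracting each gene's mean over the 6 arrays, the ATF4 arm stood at 0.17, 0.01 and -0.09 on GFP replicates 1, 2 and 3 and at -0.23, 0.06 and 0.08 on GRK3 replicates 1, 2 and 3. The ER arm stood at -0.0037, -0.05 and -0.09 in GFP cells and at -0.02, 0.05 and 0.12 in GRK3 cells. Both arms were thus low on GFP replicate 3, while on GRK3 replicate 1 the ATF4 arm was low and the ER arm near its mean. The ATF4 arm minus the ER arm was 0.17, 0.06 and -0.0039 on GFP arrays and -0.20, 0.01 and -0.04 on GRK3 arrays, and the groups overlapped. Its mean was 0.08 ± 0.09 in GFP and -0.08 ± 0.11 in GRK3 cells (SD, n = 3 each), a difference of -0.15, which was -0.09 without GRK3 replicate 1. The group difference of the ER arm was 0.09, which was 0.06 without GRK3 replicate 3, and that of the ATF4 arm was -0.06, which changed sign without GRK3 replicate 1 (0.04), without GFP replicate 1 (0.01) and with median scaling (0.02). With median scaling the median difference over all tested probes was itself 0.03. No test is given for the arm averages, because the genes were chosen with results known.

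**Figure D4:**
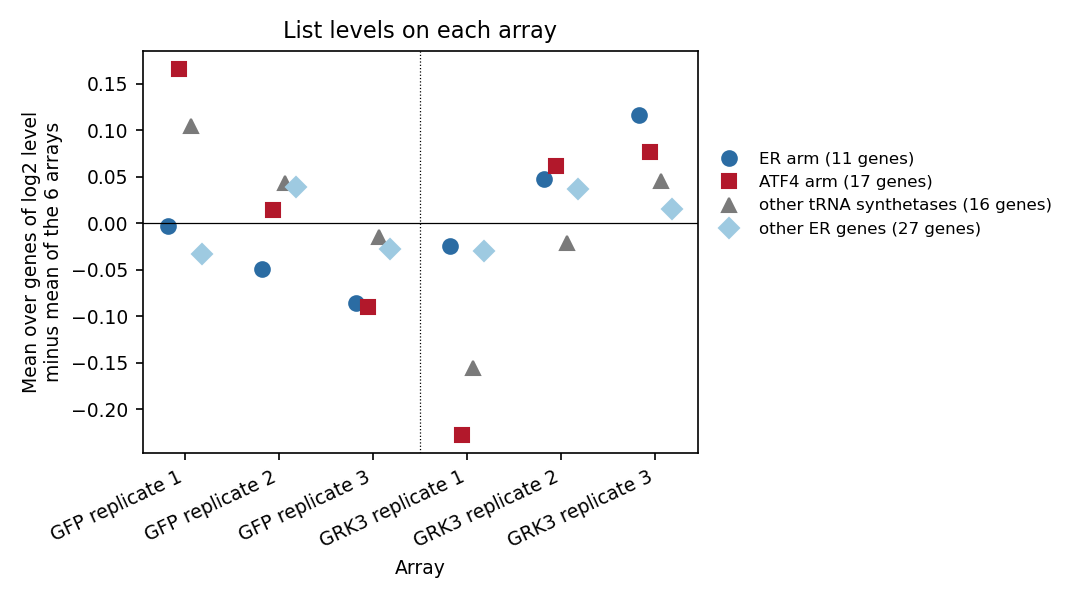
Points give, for each array on the x axis, the mean over the genes of a list of the log2 level minus the gene's mean over the 6 arrays, with the dotted line between the 3 GFP and the 3 GRK3 arrays. The ATF4 arm runs from 0.17 on GFP replicate 1 to -0.23 on GRK3 replicate 1, and the tRNA synthetases outside the arm are also lowest on GRK3 replicate 1.

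Of 65 tested genes of the same pathways that are not members, 0 passed the threshold, against 0.573% of all tested probes. The median difference was 0.03 for the other ER pathway genes, against 0.11 in the ER arm. It was 0.03 for the other ATF4 pathway genes, against -0.04 in the ATF4 arm. Among 16 other cytosolic tRNA synthetases, 15 differences were below 0, with a median of -0.07, where 7386 of all 14130 tested probes were below 0. That count depended on scaling, with 8 above and 8 below 0 under median scaling, where 8330 of all 14130 tested probes were above 0. Without GRK3 replicate 1, 12 of 16 were below 0. With quantile normalization 13 genes had their lowest value on GRK3 replicate 1. The lowest array also depended on scaling, with 4 of 16 lowest there and 7 of 16 lowest on GFP replicate 3 under median scaling. Of all tested probes, 12.7% and 28.0% were lowest on those arrays under that scaling. TARS1, SARS1 and YARS1, for threonine, serine and tyrosine, had the largest differences, at -0.26, -0.18 and -0.16 (limma adjusted p = 0.382, 0.685 and 0.613).

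Of 22 other ATF4 pathway genes, 13 differences were above 0 and 9 below. GDF15, which encodes a secreted stress cytokine, read 11.03, 10.72 and 10.26 on GFP arrays and 10.96, 11.78 and 11.67 on GRK3 arrays. The GRK3 group was higher except for its replicate 1, and the difference was 0.80 ± 0.23 (SE) with a limma adjusted p of 0.209, in a span of 0.0343 to 0.487 under the alternatives. Without GRK3 replicate 1 the difference was 1.05 and the limma adjusted p 0.0343. ATF3, a transcription factor induced by stress and by growth signals, read 10.53, 10.66 and 10.09 against 9.37, 9.85 and 9.83. All GRK3 arrays were below all GFP arrays, and the difference was -0.74 ± 0.17 (SE) with a limma adjusted p of 0.106, which lay between 0.0364 and 0.349 under the alternatives. PYCR1, an enzyme of proline synthesis, differed by 0.36 (limma adjusted p = 0.328). Its probe lay near background, with detection p-values from 0.0259 to 0.0453. Among 27 other ER pathway genes, PPIB, which encodes the ER prolyl isomerase cyclophilin B, read 10.18, 10.06 and 9.66 against 10.47, 10.23 and 10.45 (difference 0.42, limma adjusted p = 0.274). HSPA13, an HSP70 family gene, differed by 0.28 and MBTPS2, the site-2 protease that helps cleave ATF6, by -0.24 (limma adjusted p = 0.297 and 0.647). The median over the 27 genes was 0.03.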

How the data were processed

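Total RNA of 6 samples was hybridized to Illumina HumanRef-8 v3 BeadChips, 3 per group. The deposited table gives, per the file headers, a non-normalized average intensity and a detection p-value for 24526 probes on each array. The authors' value table holds intensity that equals the first table times 1 factor per array (0.931 to 1.10). The sources used here name no scanner software. Probes were named from the platform annotation, 21834 with 1 symbol, 0 with several and 2692 with none. Where the annotation's Entrez gene identifier was found in RefSeq, in 21813 cases, the current RefSeq symbol was used in place of the annotation's symbol.

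The neqc function (limma 3.58.1, R 4.3.3, offset 16) corrected background through the detection p-values, applied quantile normalization and took log2. The 14130 probes detected at p under 0.05 on at least 3 arrays were fitted together with lmFit and eBayes, two-sided, with Benjamini-Hochberg adjustment over them all and a threshold of 0.05. Where more than 1 probe of a gene was tested, the brightest on average stood for it. The arms, lists, motifs and naming rule, like the members, were chosen with earlier results of these data known. Genes shown on every array are HSPA5, DDIT3, TRIB3, CHAC1, ASNS, ATF4, ATF6, XBP1 and, in each arm, the 4 with the largest range and the 4 with the largest difference. From other lists the 3 with the largest difference are named. The fit was also run on simulated data with noise drawn independently for each probe. Such data lack patterns shared among genes on an array, and that run does not bear on them. Alternatives were background correction, offset, scaling, the authors' value table, detection filters, intensity trend, array weights, replicate block, all probes of a gene, and each array left out. The number of arrays limits the precision.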

Additional observations from a re-analysis of the deposited data

How the results depend on the processing

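The count of 0 members past the threshold became 1, PPP1R15A in each case, with no background correction, an offset of 50, the authors' value table, an intensity trend and array weights, where between 114 and 239 of all tested probes passed. It was 0 in the other settings, each left-out array included, though those runs have fewer arrays. Over 512 pairs of a member and an alternative, 5 passed, and 56 had a changed sign without passing, spread over 17 of the 32 members. The count of 0 other pathway genes became 1 with no background correction, median scaling, the authors' value table and an intensity trend (ATF3) and with array weights (GDF15), and ran from 0 to 1 with an array left out. The ER arm difference of 0.09 was 0.16 with median scaling and 0.07 with the authors' value table, and ran from 0.06 to 0.13 with an array left out. The median difference over all tested probes was 0.03 with median scaling and -0.03 with the authors' value table. The cause of these changes was not tested. With the replicate number as a block, 0 members and 0 other genes passed, and 11 of all tested probes did. The numbers were not taken to pair the arrays, as deviations of same-numbered arrays from the group means correlated at -0.41, 0.18 and -0.41 over all tested probes. The highest correlations were 0.51 for GFP replicate 3 with GRK3 replicate 1, both low in the ATF4 arm, and 0.43 for GFP replicate 1 with GRK3 replicate 3. Probes near background, such as those of CHAC1, DNAJC3 and PYCR1, are limited by signal.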
